A study of Homo sapiens with 48 samples.

Results

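The 48 genes described here act in mitosis and the G2 phase of the cell cycle. They were chosen by name, from cyclin B1 to the condensation and cytokinesis machinery, and each matched 1 of the 60610 genes in the count table. Messenger RNA was measured by sequencing in a single HEK293 clone. HEK293 is a human embryonic kidney cell line, and the clone stably carried an expression plasmid for AT1R, the angiotensin II receptor type 1. Cells were moved from medium with foetal calf serum to medium without it and then received nothing (control), 1 nM angiotensin II (AII), 10 µg/L epidermal growth factor (EGF) or both agents together (AII+EGF), for 6 h or 24 h. Each of these 8 groups was deposited as 6 libraries. All groups shared the transfected receptor and the puromycin selection, and no cells without the receptor entered the comparisons. Values are therefore those of 1 clone. The question put to the data was whether either receptor, or both at once, shifted the mitotic programme at either time.

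Cells build the mitotic proteins late in the cycle. Cyclin B1 with CDK1 drives entry into mitosis, polo-like and aurora kinases build the spindle, the BUB1 and MAD2 checkpoint holds chromosome separation until every kinetochore is attached, and CDC20 then activates the anaphase-promoting complex, which marks cyclin B and securin for destruction. Transcripts of these genes rise and fall together with the cycle. In quiescent cells the DREAM complex represses them, in cycling cells the MuvB core with B-MYB and FOXM1 activates them, and both bind a short element called CHR, often next to CCAAT boxes. Growth factors such as EGF are known for pushing cells from G1 into the cycle, while in an unsynchronised culture only a part of the cells stands in G2 or mitosis at any moment.

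The promoters of cyclin B1 and of the 5 members with the largest falls between 6 h and 24 h in untreated cells are shown because the members differed most between those times. Each line gives 250 bases before the gene start, 5′ to 3′ on the gene's strand, from RefSeq on GRCh38.p14, and capitals mark the CHR letters (TTTGAA or TTCGAA) and CCAAT on either strand. CDC20 lies at chr1:43358731-43358980, strand +, BUB1 at chr2:110678064-110678313, strand -, ECT2 at chr3:172750476-172750725, strand +, KIF4A at chrX:70289854-70290103, strand +, GTSE1 at chr22:46296620-46296869, strand + and CCNB1 at chr5:69166900-69167149, strand +.
CDC20: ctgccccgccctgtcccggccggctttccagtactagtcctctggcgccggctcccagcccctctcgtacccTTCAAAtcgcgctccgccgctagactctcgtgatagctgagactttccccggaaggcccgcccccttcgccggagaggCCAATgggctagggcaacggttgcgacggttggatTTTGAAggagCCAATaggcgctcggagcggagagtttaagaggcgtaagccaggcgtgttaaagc
BUB1: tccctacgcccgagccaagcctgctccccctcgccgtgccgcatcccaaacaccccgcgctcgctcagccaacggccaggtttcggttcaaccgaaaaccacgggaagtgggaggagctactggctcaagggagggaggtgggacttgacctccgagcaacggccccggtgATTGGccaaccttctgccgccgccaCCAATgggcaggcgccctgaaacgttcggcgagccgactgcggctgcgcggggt
ECT2: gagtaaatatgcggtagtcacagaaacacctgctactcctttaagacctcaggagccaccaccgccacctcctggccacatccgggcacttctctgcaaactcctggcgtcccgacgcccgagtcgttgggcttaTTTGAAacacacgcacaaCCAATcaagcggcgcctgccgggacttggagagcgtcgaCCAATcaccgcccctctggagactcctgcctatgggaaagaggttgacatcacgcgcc
KIF4A: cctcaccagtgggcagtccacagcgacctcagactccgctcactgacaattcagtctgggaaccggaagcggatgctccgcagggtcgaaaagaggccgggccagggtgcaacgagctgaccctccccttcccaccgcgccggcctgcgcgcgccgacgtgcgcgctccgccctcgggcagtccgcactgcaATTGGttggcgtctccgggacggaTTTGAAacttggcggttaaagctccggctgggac
GTSE1: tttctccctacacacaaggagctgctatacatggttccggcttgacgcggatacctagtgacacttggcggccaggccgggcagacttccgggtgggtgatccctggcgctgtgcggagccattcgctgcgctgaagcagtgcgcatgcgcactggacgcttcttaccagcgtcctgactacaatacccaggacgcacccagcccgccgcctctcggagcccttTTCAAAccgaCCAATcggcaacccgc
CCNB1: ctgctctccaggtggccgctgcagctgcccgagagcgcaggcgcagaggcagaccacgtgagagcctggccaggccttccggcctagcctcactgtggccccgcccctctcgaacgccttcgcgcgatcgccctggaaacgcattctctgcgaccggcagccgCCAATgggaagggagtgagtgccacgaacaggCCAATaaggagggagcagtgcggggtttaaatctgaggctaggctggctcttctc
CDC20 held TTTGAA 65 bases before its start between 2 CCAAT boxes, and KIF4A held it 34 bases before its start. GTSE1 had the same letters on the opposite strand at 26 bases. In BUB1 and CCNB1 only CCAAT boxes were found in this window. Over the 41 members with a listed promoter, 22 (53.7%) held CHR letters, against 14.6% of 27305 promoters of the same length, and 32 (78.0%) held CCAAT, against 33%. Both stood together in 20 members (48.8%), against 5.24% of all promoters. Where RefSeq listed several starts, the first was used. Not matched were TPX2, BUB3, BIRC5, UBE2C, AURKA, TTK and FOXM1. A match of letters is a description and not a binding site.

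Before the comparisons 10 libraries were left out. In 4 pairs, 8 libraries in all, the members of a pair differed by less than the sampling noise (chi-square per degree of freedom 0.397 to 0.505, against at least 2.02 for any other pair), and 3 of the 4 pairs carried different group labels. The library labelled AII 6 h replicate 6 had 40.1 CPM of EGR1, an early growth-factor response gene, against 6.23 to 8.63 CPM in the other AII 6 h libraries used. The library labelled AII+EGF 6 h replicate 6 had 4.66 CPM, against 189 to 283 CPM. The 38 libraries used were 4 controls, 5 AII, 3 EGF and 4 AII+EGF at 6 h, and 6, 5, 5 and 6 at 24 h. They held 17.8 M to 29.96 M counts, with the EGF 6 h libraries deepest at 28.03 M to 29.96 M. The 24 h libraries numbered 6 of EGF and of AII+EGF, which were kept, had EGR1 at 6.46 and 8.10 CPM, within the 6.56 to 8.51 CPM of the 24 h controls or just below. Counts that changed when all 5 libraries numbered 6 were left out are given beside the results. The HEK293 markers NEFM, VIM, KRT8 and KRT18 were present in every library, PAX2 was low (0.274 to 3.90 CPM), and PTPRC, UMOD, AQP2, ALB and PECAM1 had 0 to 9 counts. Nothing in the labels says that replicates were separate cultures, so p-values measure only the spread between these libraries.

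All 48 members were tested among 19626 genes. Levels are given as CPM, reads of a gene per M reads counted, scaled for library size and composition. A gene is said to have risen or fallen when its adjusted p was under 0.01 by the quasi-likelihood test of edgeR (Benjamini-Hochberg), and a stricter count also asked for 1.5-fold and a mean above 5 CPM. CPM is not divided by transcript length, so levels are compared between libraries and not between genes. Group means of the members ran from 1.02 CPM (NUSAP1) to 976 CPM (TOP2A), and 46 of 48 exceeded 5 CPM in every group, all but NUSAP1 and PRC1, which bundle spindle microtubules. RefSeq places another gene across 23 of the 48, among them an antisense gene at PRC1, HMMR and KIF23. Their values are uncertain, since the strand setting of the counting is not stated.

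At 6 h no member passed for either single agent. With AII, 0 of 48 members passed, at a background of 0.922% of all tested genes, 0 had an unadjusted p under 0.05, and DESeq2 called 0. Their median log2 change was 0.00, and 41 of 48 had a 95% interval wholly within 1.5-fold of the control. With EGF, 0 of 48 passed at a background of 3.37%. Of these 6 had an unadjusted p under 0.05, all with higher values, and DESeq2 called 0. The median of the members was 0.12 against -0.01 for all tested genes, and 39 had intervals inside 1.5-fold. The median deviation of the members per library was 0.10 to 0.15 in the 3 EGF libraries and -0.03 to 0.08 in the 4 controls, so these did not overlap. The gap was narrow beside 0.0778, the pooled SD of this median between libraries of a group. How often other sets of genes separated in this way was not counted. The highest EGF values were those of PLK1 at 0.38 ± 0.18 (SE, log2) and of CDCA8, a chromosomal passenger, at 0.29 ± 0.16. PLK1 is a kinase that promotes entry into mitosis.

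AII+EGF at 6 h was followed by 1 rise. BUB1 rose and 0 members fell, while 12.4% of tested genes rose and 11% fell. The stricter count held 0 members, against 12% of all tested genes. By unadjusted p under 0.05, 10 members were higher and 3 lower, the members' median log2 change was 0.09 against -0.03 over all genes, and 41 of 48 intervals lay inside 1.5-fold. The 7 outside were ECT2, MKI67, NUSAP1, PRC1 and the 3 large proteins CENPE, CENPF and KIF20B.

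BUB1, the checkpoint kinase at kinetochores (chr2:110637528-110678063), measured 129.8, 135, 136 and 140.3 CPM in the 6 h controls, 133, 139.6, 139.9, 144 and 151 CPM with AII, 158, 162 and 169 CPM with EGF and 158, 166, 181 and 181 CPM with AII+EGF. All AII+EGF libraries lay above all controls and above all AII libraries, and overlapped with EGF. How many of all tested genes separated from their controls in this way was not counted, here or for the stimulated genes below. The log2 change with AII+EGF was 0.34 ± 0.08 (SE), with a 95% interval of 0.18 to 0.51 and an adjusted p of 0.00118. With EGF alone it was 0.27 ± 0.09 (adjusted p = 0.0637), which missed the threshold, and with AII alone 0.07 ± 0.08. Against AII the joint stimulus raised BUB1 by 0.28 ± 0.08 (adjusted p = 0.00686). Against EGF the difference was 0.07 ± 0.09, with a 95% interval of -0.11 to 0.26.

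KIF23, a kinesin of the central spindle needed for cytokinesis (chr15:69414349-69448427), measured 124, 128, 132 and 138 CPM in the 6 h controls, 117, 119.9, 121, 122 and 138 CPM with AII, 131, 136 and 138 CPM with EGF and 140.3, 144, 157 and 169 CPM with AII+EGF. Every joint library exceeded every control and every AII library. It rose against AII by 0.30 ± 0.08 on the log2 scale (adjusted p = 0.00617), but not against the control (0.23 ± 0.09, adjusted p = 0.0479). BUB1 and KIF23 were the 2 members that rose in AII+EGF against AII at 6 h, where 9.48% of tested genes rose and 8.08% fell, and 0 members fell. Both calls depend on single libraries. Without AII 6 h replicate 1, 2, 3 or 5 or AII+EGF 6 h replicate 3, 0 members passed. Leaving out AII+EGF 6 h replicate 1 or 5 kept 1 call. The same comparison over 40 libraries, including both libraries with EGR1 against their label, also called 0. Against EGF, AII+EGF at 6 h changed 0 of 48 members (background 5.41%). DESeq2 called 0 there, 7 members had an unadjusted p under 0.05, all lower, and 38 intervals lay inside 1.5-fold.

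The libraries fall into runs of consecutive sample titles, which the labels do not call batches, and each run as deposited holds the 4 treatments of 1 time. Of the libraries used, run 1 held only AII and AII+EGF, and run 7 held only 1 control. At 6 h, controls thus shared a run with AII+EGF and with EGF only in runs 4 and 5. AII+EGF 6 h replicates 1 and 2 had no control of their run, also in the fit without the term. With the run as a term within each time, 5 members rose at 6 h with AII+EGF and 0 fell. These were BUB1 (0.37), AURKA (0.38), CCNB1 (0.35), CCNA2 (0.31) and CDCA8 (0.26), all log2 changes below 1.5-fold. Under the same term 8 members rose against AII at 6 h, with CDK1 at 0.35 and KIF23 at 0.32. The share of all tested genes called with the term is not given, so these counts have no background beside them. Without the term 12.4% of tested genes rose against the control and 9.48% against AII.

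After 24 h no member passed for either single agent. AII at 24 h changed 0 of 48 members and 0% of all tested genes. No member had an unadjusted p under 0.05 (0 of 48), DESeq2 called 0, and 43 intervals lay inside 1.5-fold. EGF at 24 h changed 0 of 48 (background 0.586%), with 3 at an unadjusted p under 0.05 and 0 by DESeq2, and 44 intervals lay inside 1.5-fold. The medians were -0.02 with AII and 0.01 with EGF.

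AII+EGF at 24 h changed 0 of 48 members while 10.4% of tested genes changed, and 0 met the stricter rule, which 2.9% of tested genes met. At an unadjusted p under 0.05, 11 members were higher and 3 lower, and 40 intervals lay inside 1.5-fold. The lowest adjusted p was that of BUB1 (0.22 ± 0.07, adjusted p = 0.0185), with 76.9 to 99.5 (median 90.7) CPM in the controls and 95.2 to 114 (median 104) CPM with AII+EGF. This count moved with single libraries and settings. DESeq2 called 2, BUB1 at 0.24 and AURKA at 0.27. Without title runs 7 and 8, which hold the 5 libraries numbered 6 that were used, 4 at 24 h and control 6 h replicate 6, BUB1 and CDC25B, the phosphatase that activates CDK1, rose, each by 0.30. Without control 24 h replicate 3, 5 members rose and KIF11, the motor that separates spindle poles, fell. Leaving out control 24 h replicate 6 gave 1 rise, and leaving out AII+EGF 24 h replicate 6 gave 3. With the run of titles as a term, 5 rose and 1 fell: CDC25B 0.28, KIF2C 0.26, AURKA 0.25, BUB1 0.22 and PTTG1 0.33, against KIF4A at -0.22. The share of all tested genes called in these alternatives is not given.

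Against EGF, the joint stimulus at 24 h changed 0 of 48 members (background 0.168%), 0 by DESeq2, with 4 at an unadjusted p under 0.05, all higher, and 42 intervals inside 1.5-fold. Against AII it changed 0 (background 4.64%), with 10 higher and 2 lower at an unadjusted p under 0.05. DESeq2 called 3 here, AURKA (0.34), CDC25B (0.38) and BUB1 (0.24), and the fit without those title runs called the same 3 genes. Left-out libraries gave 1 to 3 calls in this comparison: 2 without control 24 h replicate 3 or 6 or AII 24 h replicate 3, 1 without AII 24 h replicate 6 or control 6 h replicate 6; AII+EGF 24 h replicate 6 left out gave 3.

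The interaction asks whether AII+EGF differed from the sum of the single responses on the log2 scale. At 6 h it was called for 0 of 48 members (background 0.265%) and at 24 h for 0 (background 0%). DESeq2 called 0 at both times. At 6 h 1 member, and at 24 h 4 members, had an unadjusted p under 0.05. The intervals of the interaction are wider, and 31 of 48 lay inside 1.5-fold at each time. BUB1 had an interaction of 0.01 ± 0.12 at 6 h and 0.07 ± 0.10 at 24 h.

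**Figure D1:**
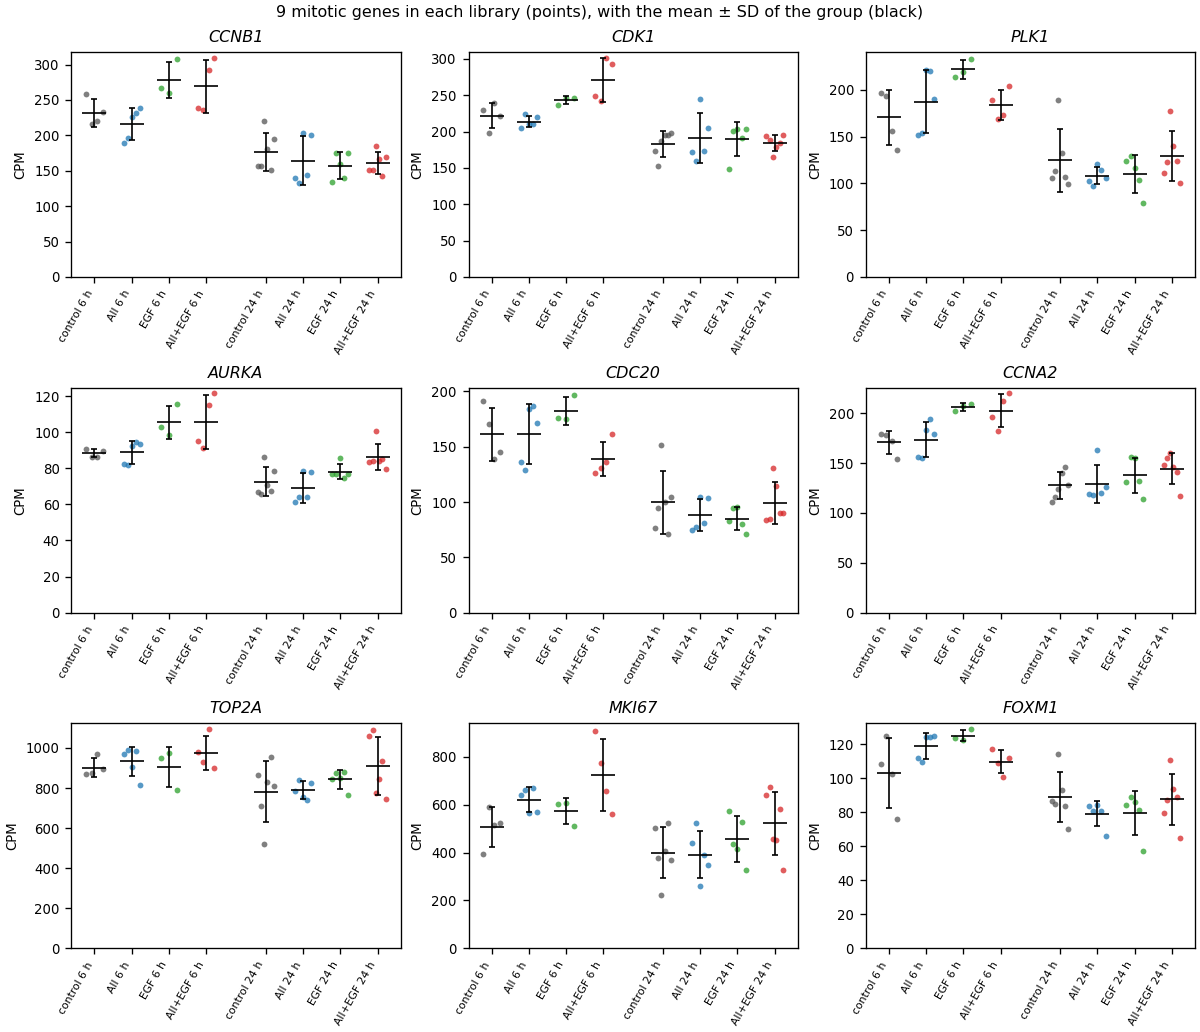
CPM (vertical axis, from 0) of 9 mitotic genes in the 38 libraries by group; points are libraries and black marks the mean ± SD. At 6 h all EGF libraries lie above all controls for CCNB1, PLK1, AURKA and CCNA2. All AII+EGF libraries do so at 6 h for CDK1, AURKA and CCNA2. Every other stimulated group overlaps with the controls of its time. The 24 h group means on the right lie below all 6 h means for CCNB1, CDK1, PLK1, AURKA, CDC20, CCNA2 and FOXM1. The control means of CDC20 are 161 CPM at 6 h and 99.7 CPM at 24 h.

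Cyclin B1, the cyclin of mitotic entry, showed these levels. At 6 h CCNB1 measured 215, 220.0, 233 and 259 CPM in controls, 189, 196, 226, 232 and 238 with AII, 259.9, 266 and 308 with EGF and 236, 239, 292 and 309 with AII+EGF. The CCNB1 values at 24 h were 151 to 219.9 (median 169) CPM in controls, 133, 140.1, 145, 201 and 203 with AII, 135, 140.2, 160.1, 175 and 175 with EGF and 142 to 185 (median 159) with AII+EGF. EGF libraries at 6 h lay just above the controls, and at 24 h all stimulated groups overlapped with the controls. Its partner CDK1, the kinase of mitotic entry, had 199, 221, 230.0 and 239 CPM in 6 h controls, 205, 210.1, 210.1, 220.1 and 224 with AII, 237, 246 and 246 with EGF and 242, 249, 293 and 302 with AII+EGF. At 24 h CDK1 had 152 to 198 (median 191) CPM in controls, 159, 172, 174, 206 and 244 with AII, 149, 191, 200.3, 203 and 204 with EGF and 165 to 195 (median 187) with AII+EGF. The 4 joint libraries at 6 h were all above the controls, with a log2 change of 0.29 ± 0.11 (adjusted p = 0.0357) that missed the threshold. CCNA2, cyclin A2 of S and G2 phase, had 154, 172, 178 and 179 CPM in 6 h controls, 155, 156, 179, 183 and 195 with AII, 202, 207 and 209.6 with EGF and 182, 196, 212 and 220.1 with AII+EGF. The 24 h values of CCNA2 were 111 to 146 (median 126) CPM in controls, 118, 119, 119.7, 126 and 163 with AII, 114, 131, 132, 155 and 156 with EGF and 117 to 160.1 (median 147) with AII+EGF. EGF and AII+EGF libraries at 6 h lay above every control, yet neither passed (0.27 ± 0.12, adjusted p = 0.204; 0.25 ± 0.11, adjusted p = 0.085).

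Between libraries of a group, PLK1 and CDC20 varied more than CCNB1, CDK1 and CCNA2, and AURKA varied less. PLK1 had 136, 156, 193 and 197 CPM in 6 h controls, 152, 154, 189.8, 220.3 and 221 with AII, 214, 219 and 233 with EGF and 169, 173, 189 and 204 with AII+EGF. At 24 h PLK1 had 99.8 to 189 (median 110.1) CPM in controls, 97.6, 103, 106, 114 and 121 with AII, 78.8, 103, 117, 123 and 129 with EGF and 101 to 177 (median 123) with AII+EGF. EGF libraries at 6 h lay above the controls, but the interval of 0.01 to 0.75 around the log2 change nearly reached 0. AURKA, which matures spindle poles, had 86.5, 86.5, 89.4 and 90.8 CPM in 6 h controls, 81.7, 82.5, 92.3, 93.3 and 94.4 with AII, 98.2, 103 and 116 with EGF and 91.4, 94.9, 115 and 122 with AII+EGF. Its 24 h values were 65.8 to 86.1 (median 69.1) CPM in controls, 61.2, 64.1, 64.2, 78.1 and 78.3 with AII, 74.6, 76.6, 76.9, 76.97 and 85.8 with EGF and 79.7 to 101 (median 84.03) with AII+EGF. EGF and AII+EGF libraries of AURKA at 6 h lay above every control, yet neither group passed. With AII+EGF the log2 change of AURKA was 0.26 ± 0.10 at 6 h (adjusted p = 0.0388) and 0.25 ± 0.08 at 24 h (adjusted p = 0.0268). CDC20 had 139, 145, 170.4 and 191 CPM in 6 h controls, 129, 136, 171, 184 and 187 with AII, 175, 176 and 197 with EGF and 127, 131, 137 and 162 with AII+EGF. At 24 h CDC20 had 71.2 to 151 (median 97.2) CPM in controls, 74.8, 77.7, 81.1, 104 and 105 with AII, 70.9, 80.5, 82.6, 94.9 and 95.9 with EGF and 83.7 to 131 (median 90.4) with AII+EGF. No stimulated group of CDC20 was separate from its control.

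The proliferation markers and FOXM1 overlapped between most groups. TOP2A, which untangles DNA before division, had 868, 874, 897 and 969 CPM in 6 h controls, 818, 906, 969, 986 and 989.6 with AII, 789, 950.4 and 973 with EGF and 901, 928, 980.0 and 1094 with AII+EGF. In 24 h libraries TOP2A had 521 to 955 (median 819.8) CPM in controls, 738, 755, 787, 825 and 840.0 with AII, 766, 847, 849, 876 and 879.8 with EGF and 748 to 1089 (median 888) with AII+EGF. All its groups overlapped with their controls. MKI67, which encodes the Ki-67 coat of mitotic chromosomes, had 392, 517, 525 and 590.3 CPM in 6 h controls, 565, 568, 642, 662 and 669 with AII, 512, 604 and 608 with EGF and 560.1, 658, 775 and 906 with AII+EGF. At 24 h MKI67 had 225 to 522 (median 390.5) CPM in controls, 260.0, 346, 391, 439.9 and 523 with AII, 327, 415, 437, 526 and 572 with EGF and 326 to 673 (median 519) with AII+EGF. Its interval with AII+EGF at 6 h was wide (0.09 to 0.95 on the log2 scale, adjusted p = 0.0577). FOXM1, the transcription factor of the G2 programme, had 76.1, 102, 108 and 125 CPM in 6 h controls, 109.5, 112, 124, 124 and 125 with AII, 123, 124 and 129 with EGF and 101, 109, 112 and 117 with AII+EGF. At 24 h FOXM1 had 70.2 to 114 (median 85.5) CPM in controls, 66.3, 80.5, 80.8, 83.8 and 84.5 with AII, 57.3, 81.2, 84.4, 86.2 and 88.8 with EGF and 64.96 to 110.4 (median 88.2) with AII+EGF. FOXM1 overlapped with its control in every stimulated group.

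**Figure D2:**
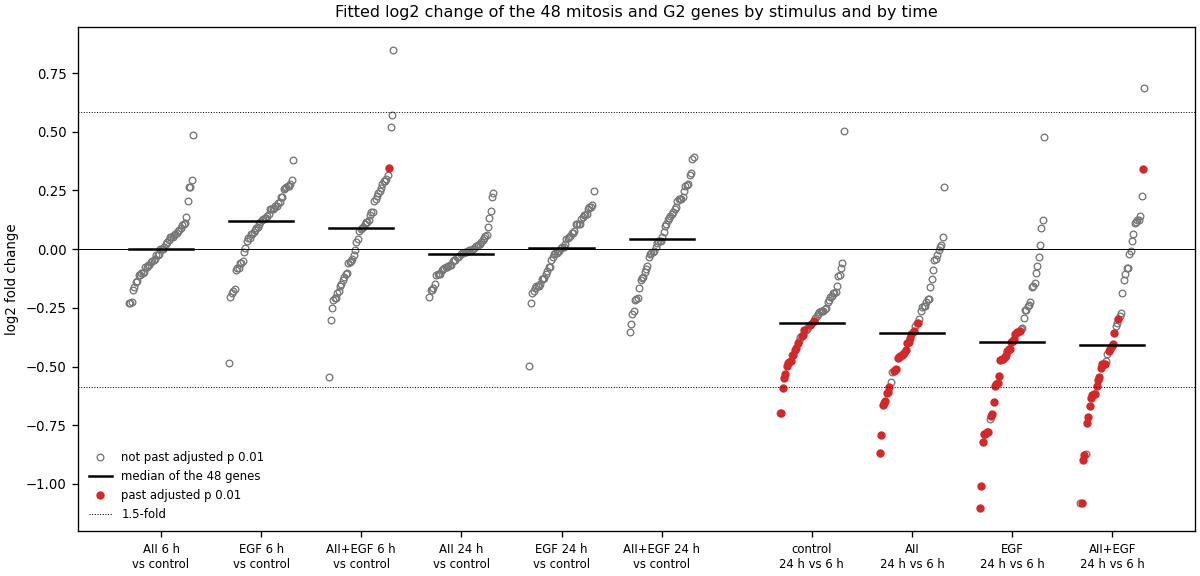
Fitted log2 fold change (vertical axis) of the 48 genes in the 6 comparisons of a stimulus with its control and in the 4 comparisons of 24 h with 6 h; red points passed adjusted p 0.01, bars are medians and dotted lines 1.5-fold. The medians of the stimulus comparisons lie between -0.02 and 0.12, those of the time comparisons between -0.41 and -0.31.

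The clear difference was between the times. In untreated cells 17 of 48 members were lower at 24 h than at 6 h and 0 were higher, while over all tested genes 9.16% fell and 11.9% rose. The median log2 change was -0.31 for the members and 0.03 for all genes, and 47 of 48 had a negative value, all but NUSAP1 (0.50 ± 0.25, which did not pass). DESeq2 called 21, all lower, and 18 fell without title runs 7 and 8. Of the members 2, CDC20 and BUB1, met the stricter rule, against 6.73% of tested genes, so most falls were under 1.5-fold. RNA from a culture cannot tell fewer cells in G2 and mitosis from less of each transcript per cell. Time also cannot be told apart from the run of sample titles, since no run holds both times.

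By role, the spindle checkpoint had the largest share among groups of more than 2 genes, with 4 of 5 genes lower (BUB1, BUB1B, BUB3 and TTK, not MAD2L1). Over all tested genes 9.16% fell. The median log2 changes were closer: -0.36 in the checkpoint, -0.37 in spindle and microtubule genes and -0.33 to -0.26 in the other groups of that size. A share of calls also depends on spread, and BUB1, BUB1B and BUB3 were among the tightest members. Both cytokinesis genes fell, ANLN, which organises the cleavage furrow, and ECT2, which activates RhoA there. Of the 6 kinesins 3 fell (KIF4A, KIF11 and KIF23), of 7 spindle and microtubule genes 3 (GTSE1, CKAP2 and DLGAP5), and of 3 passenger proteins 1 (BIRC5). There was 1 fall each among 8 cyclins and CDK1 regulators (CCNA2), 4 mitotic kinases (NEK2), 6 kinetochore genes (CENPA) and 3 genes of anaphase promotion (CDC20). TOP2A, MKI67, FOXM1 and CDCA3 did not pass.

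The 5 largest falls that passed were as follows. CDC20 went from 161 ± 23.96 CPM (SD, n = 4) to 99.7 ± 28.5 CPM (n = 6), a log2 change of -0.70 ± 0.15 (SE, adjusted p = 0.000675), and 1 of its 24 h libraries at 151 CPM overlapped with the 6 h controls. BUB1 went from 135 ± 4.29 to 89.6 ± 8.62 CPM (-0.59 ± 0.08, adjusted p = 5.01e-07) with no overlap. ECT2 measured 103, 114, 118 and 121 CPM at 6 h and 49.8 to 93.4 (median 81.2) CPM at 24 h (-0.55 ± 0.13, adjusted p = 0.0012). KIF4A, a motor that shapes the midzone and condenses chromosomes, measured 124, 147, 147 and 161 CPM and 91.1 to 114 (median 99.2) CPM (-0.53 ± 0.09, adjusted p = 4.2e-05). GTSE1, a microtubule-binding protein of G2, measured 84.01, 85.4, 86.2 and 92.7 CPM and 57.6 to 67.8 (median 61.1) CPM (-0.50 ± 0.07, adjusted p = 1.71e-06). Of these 5, only CDC20 overlapped between the times. SPC25, a kinetochore subunit, had as low a value (-0.70 ± 0.21) but a wide spread and did not pass (adjusted p = 0.0104).

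Several members had 24 h values near those of 6 h. UBE2C, the E2 enzyme of the anaphase-promoting complex, had a log2 change of -0.06 (95% interval -0.32 to 0.20), CDC25C -0.08 (-0.30 to 0.14), PSRC1 -0.11 (-0.34 to 0.11) and KIF2C, a microtubule depolymerase, -0.12 (-0.33 to 0.10). In all, 14 of 48 members had every 24 h control below every 6 h control, against 7.05% of tested genes, and over all 22 libraries of 24 h and 16 of 6 h BUB1, CENPA, GTSE1 and ECT2 (4 of 48) did not overlap, against 2.5%. The number of falls was sensitive to the libraries in the fit. It was 11 without control 6 h replicate 3, 3 (BUB1, ECT2 and GTSE1) with all 48 libraries and 3 when only the 2 control groups were fitted. The 48-library fit includes control 6 h replicates 1 and 2, each nearly identical to a 24 h library.

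**Figure D3:**
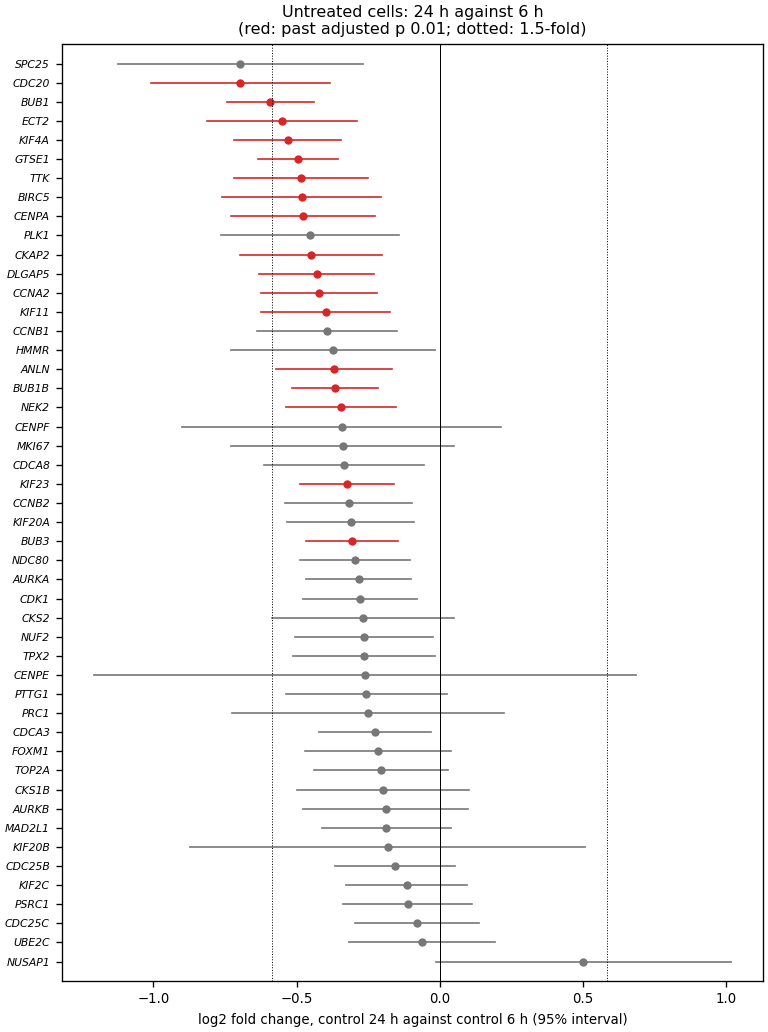
Log2 fold change of each of the 48 genes in untreated cells, 24 h against 6 h, with the 95% interval (horizontal axis); red marks the 17 genes past adjusted p 0.01 and dotted lines 1.5-fold. All 48 points but that of NUSAP1 lie left of 0, with CDC20 at -0.70 and BUB1 at -0.59.

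The same comparison within each stimulus was added after the controls had been seen. In AII-treated cells 24 of 48 fell from 6 h to 24 h and 0 rose (13.2% and 15.3% of tested genes), and 8 met the stricter rule (9.23%). The largest falls were CDC20 (-0.87), PLK1 (-0.79), MKI67 (-0.66), BUB1 (-0.66) and GTSE1 (-0.65), and 15 fell without AII 6 h replicate 4. In EGF-treated cells 28 fell and 0 rose (16.3% and 15% of tested genes), and 10 met the stricter rule (14.6%). CDC20 (-1.10), PLK1 (-1.01), CCNB1 (-0.82), GTSE1 (-0.79) and CENPA (-0.79), the histone of the centromere, led them. With AII+EGF 23 fell and 1, KIF2C (0.34), rose (23.8% and 24% of tested genes), and 10 met the stricter rule (23.6%). Here SPC25 (-1.08), CENPF (-0.90), ECT2 (-0.88), CCNB1 (-0.74) and BUB1 (-0.72) fell most. Without title runs 7 and 8 there were 24 falls with AII, 21 with EGF and 17 with AII+EGF, where KIF2C (0.44) and PRC1 (0.74) rose and CENPF no longer passed. The medians of the 48 members were -0.36, -0.39 and -0.41 in these 3 comparisons. With AII+EGF the members' share in the stricter count lay near the background.

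Whether a stimulus altered this difference was tested directly, as the response at 24 h minus that at 6 h. For AII 0 of 48 members passed (background 0.153%), for EGF 0 (1.3%) and for AII+EGF 0 (16.4%), with 1, 6 and 6 members at an unadjusted p under 0.05 and 0 calls by DESeq2 in each. The most separate were KIF2C with 0.46 ± 0.15 (adjusted p = 0.0196) and NEK2, a centrosome kinase, with 0.38 ± 0.13 (adjusted p = 0.0324) for AII+EGF. Both passed without title runs 7 and 8 (0.55 and 0.50), KIF2C also without control 24 h replicate 3 (0.51) or AII+EGF 24 h replicate 6 (0.52). With the run of titles as a term, CCNB1 passed for EGF (-0.46) and for AII+EGF (-0.48), as did KIF2C for AII+EGF (0.38). Intervals inside 1.5-fold numbered 35, 28 and 30 of 48.

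**Figure D4:**
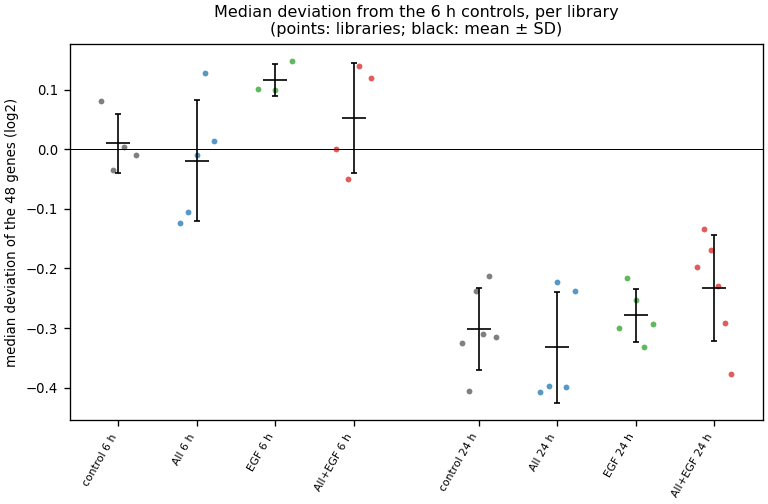
Median deviation of the 48 genes from the mean of the 6 h controls (log2, vertical axis) in each library by group; black marks the mean ± SD. The 16 libraries of 6 h lie between -0.12 and 0.15 and the 22 libraries of 24 h between -0.41 and -0.13, whatever the stimulus.

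Per library, the median deviation of the members from the 6 h controls averaged 0.01 ± 0.05 (SD) in controls, -0.02 ± 0.10 with AII, 0.12 ± 0.03 with EGF and 0.05 ± 0.09 with AII+EGF at 6 h. At 24 h the averages were -0.30 ± 0.07, -0.33 ± 0.09, -0.28 ± 0.04 and -0.23 ± 0.09. The ranges of 6 h and 24 h did not overlap, while the 4 groups of 24 h did.

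Other cell-cycle lists were lower at 24 h in untreated cells as well, where 9.16% of all tested genes fell and 11.9% rose. Among 72 other G2/M genes 20 (27.8%) fell and 0 rose, led by KPNA2 (-0.71), an importin, and CENPL (-0.59). Of 50 genes of DNA replication and S phase 16 (32%) fell, led by CLSPN (-0.84) and CCNE1 (-0.67), against 35.4% of the members. Of 16 subunits and activators of the anaphase-promoting complex 4 fell, led by CDC27 (-0.59), and of 13 genes of the DREAM and B-MYB complex 3 fell, led by E2F4 (-0.76). In the list of 13 G1 cyclins and CDK inhibitors 0 fell and 1, CDKN1C (0.73), rose. These medians were -0.30, -0.29, -0.29, -0.28 and -0.10. The members are well measured, with a median SE of 0.12 against 0.17 over all tested genes.

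With AII+EGF at 6 h, when 23.4% of all tested genes changed, the shares called in these lists were 13.9% of the other G2/M genes, 16% of the S phase list, 18.8% of the anaphase-promoting complex and 15.4% of the DREAM list, all below that background, and 38.5% of the G1 list. None of these shares was tested against the members. Of the 72 other G2/M genes 4 rose and 6 fell, among them KPNA2 (0.92), CENPN (0.48), CENPM (-0.82) and CENPI (-0.74). RRM2 (1.03), which makes deoxyribonucleotides, and CCNE2 (0.72) rose and CDT1 (-0.84) and LIG1 (-0.77) fell among 4 rises and 4 falls in the S phase list. RBL2 (-1.18), the p130 subunit of DREAM, and TFDP2 (-0.36) fell, as did ANAPC16 (-0.81) and ANAPC2 (-0.72) among 3 of 16 genes of the anaphase-promoting complex. Of the G1 list 3 rose and 2 fell, with CDKN1A (0.91) and CDK6 (0.82) up and CDKN2C (-0.51) down. EGF alone at 6 h raised RRM2 (0.49), CCND1 (0.71) and CDKN1A (0.63), and AII alone raised E2F2 (0.37). At 24 h AII+EGF had 4 rises and 4 falls among the other G2/M genes, with INCENP (0.41), HJURP (0.30), ZW10 (-0.51) and MIS12 (-0.46), and 1 rise and 4 falls in the S phase list (11.1% and 10% called, against 10.4% of tested genes).

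The members differed in how tightly libraries of a group agreed. The within-group SD of log2(CPM + 0.5) was 0.19 at the median of the 48, against 0.23 over all tested genes, and 36 members were below the latter. GTSE1 (0.09), BUB1B (0.10), BUB1 (0.10) and BUB3 (0.11) were tightest. CENPE (0.83), KIF20B (0.60) and CENPF (0.48) were widest, and 99.9%, 99.3% and 97.7% of all tested genes had a smaller SD. CENPE, the kinesin that moves chromosomes to the spindle equator (chr4:103105811-103198343), had 29.9, 46, 46.03 and 95.4 CPM in 6 h controls, 23.3, 45.1, 57.6, 126 and 130.0 with AII, 26.3, 56.1 and 59.2 with EGF and 34.6, 79.8, 130.4 and 147 with AII+EGF. Libraries of 1 group thus differed several-fold. Its log2 change with AII+EGF at 6 h, 0.85, had an interval of -0.20 to 1.89 and did not pass (adjusted p = 0.219).

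These wide members moved together by run of titles. In run 1 the mean deviation from the group was 0.85 for CENPE, 0.41 for CENPF and 0.51 for KIF20B, and in run 2 it was 0.77, 0.39 and 0.54. In run 3 it was -0.85, -0.53 and -0.59, and in run 5 -0.89, -0.48 and -0.68. MKI67 followed in the same direction in those runs with 0.15, 0.30, -0.24 and -0.15. Other members went either way. In runs 1 and 3, HMMR had 0.12 and -0.32 and TOP2A 0.02 and -0.11. The opposite direction was seen in CDC20 (-0.18 and 0.28), PLK1 (-0.16 and 0.27), CCNB1 (-0.17 and 0.17) and AURKA (-0.14 and 0.10). CCNB1 and AURKA are among the genes called for AII+EGF at 6 h with the run term. The part that the runs play in the stimulus comparisons was tested only by the term given above, and what sets the runs apart was not tested.

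**Figure D5:**
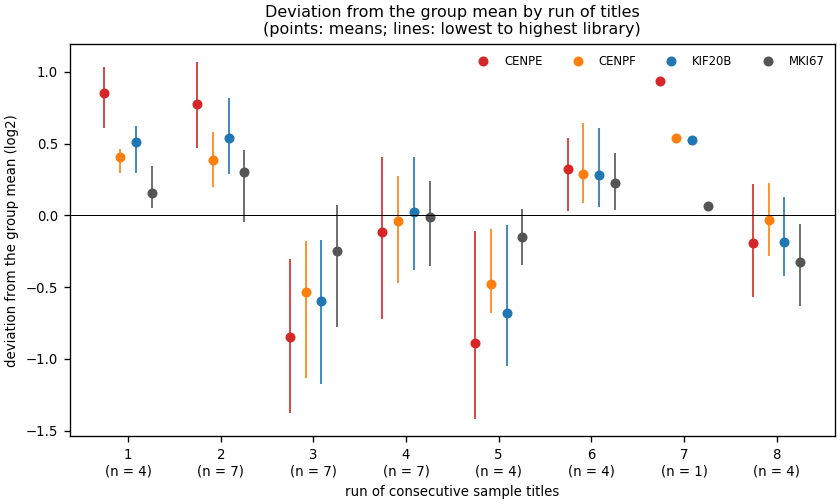
Deviation from the group mean (log2, vertical axis) of CENPE, CENPF, KIF20B and MKI67 by run of consecutive sample titles; points are means over the n libraries shown and lines reach from the lowest to the highest library. CENPE is high in runs 1 and 2 (0.85 and 0.77) and low in runs 3 and 5 (-0.85 and -0.89).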

How the data were processed

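The labels and methods describe oligo(dT)-enriched RNA of an AT1R-expressing HEK293 clone, sequenced in pairs. The authors mapped reads to hg38 with HISAT2 2.1.0, counted them per Ensembl gene with featureCounts and deposited raw counts. The strand setting and the treatment of reads with several matches are not given in the sources used here. Differences were fitted in R 4.3.3 with edgeR 4.0.16 (filterByExpr by group, TMM factors, 1 quasi-likelihood fit of the 8 group means over 38 libraries, 30 residual degrees of freedom, Benjamini-Hochberg adjustment over 19626 genes). Of 60610 genes, 44295 had a count, and 37 mitochondrial genes were at 0. Every library had at least 17.8 M counts. How much of the spread came from counting was not tested, and NUSAP1 was the lowest member, with group means down to 1.02 CPM. The stricter rule took the mean of the higher group. The text gives 9 fixed genes by library (range and median in groups of 6), the 5 largest rises and falls among members past adjusted p 0.01 per comparison, and 2 in the other lists. Genes named outside this rule were chosen after their values were seen. Members and lists were chosen with earlier results of these data known. DESeq2 1.42.0, RLE factors, other filters, other sets of libraries, title runs and left-out libraries were alternatives. The scripts were tested on simulated data. Replicate numbers follow deposition and pair nothing. Python 3.11.15 drew the figures.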

Additional observations from a re-analysis of the deposited data

Results flagged for a closer look

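Over the 14 genes with values in every library or named for untreated cells and the median deviation of the members, single libraries were compared with the rest of their group in groups of 4 to 10, and 8 of 105 stood apart by Dixon's criterion. Chance alone flags about 1 in 20 groups. CDK1 was 149 CPM in EGF 24 h replicate 1, against 191 to 204 CPM in the others. PLK1 was 189 CPM in control 24 h replicate 3, against 99.8 to 132 CPM. AURKA was 85.8 CPM in EGF 24 h replicate 4, against 74.6 to 76.97 CPM, and 101 CPM in AII+EGF 24 h replicate 3, against 79.7 to 85.3 CPM. CCNA2 was 163 CPM in AII 24 h replicate 3, against 118 to 126 CPM. FOXM1 was 66.3 CPM in AII 24 h replicate 6, against 80.5 to 84.5 CPM, and 57.3 CPM in EGF 24 h replicate 6, against 81.2 to 88.8 CPM. KIF23 was 138 CPM in AII 6 h replicate 4, against 117 to 122 CPM. The EGF 6 h group of 3 was not tested.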

How the results depend on the processing

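The 0 counts for AII, EGF and the interactions at both times and for the AII response stayed at 0 under every alternative run. For AII+EGF at 6 h the count of 1 became 7 at adjusted p under 0.05, 0 under the stricter rule or without a filter on low counts, 8 with all 48 libraries and 5 with the run of titles as a term. For AII+EGF at 24 h the 0 became 5 at adjusted p under 0.05, 2 with DESeq2 or without title runs 7 and 8, and 6 with the run term. Against EGF, 1 was called at 6 h in the fit of the groups compared (CDC20, -0.38) and 1 at 24 h with the run term (CDC25B, 0.31). Against AII at 6 h the 2 calls became 4, 0 (stricter rule, no filter, all 48 libraries, 40 libraries) or 8 with the run term. Against AII at 24 h the 0 became 3 at adjusted p under 0.05, with DESeq2 or without title runs 7 and 8, 1 with RLE factors and 4 with the run term. In untreated cells the 17 became 2 under the stricter rule and 3 with all 48 libraries or the 2 groups alone. The EGF response difference had 1 call with the run term, the joint one 3 at adjusted p under 0.05 and 2 with the run term or without title runs 7 and 8. The time comparisons in AII, EGF and AII+EGF cells had 8, 10 and 10 calls under the stricter rule. Leaving out 1 library gave 0 to 6 calls for AII+EGF at 24 h, 0 to 3 against AII at either time, 11 to 20 in untreated cells, 0 to 1 for the joint response difference, 15 to 26 with AII over time, 19 to 29 with EGF and 18 to 27 with AII+EGF. Of 1107 alternatives for 24 named gene results, 1064 kept the call, 43 lost it and 0 reversed. The members' median was recomputed under 6 alternatives a comparison, 114 in all. In 7 it moved by more than 0.0778, the pooled SD between libraries, 6 of them with all 48 libraries, where it was 0.11 with AII at 6 h and -0.22 over time in untreated cells. The cause of the shifts was not tested. Counts of members under the alternatives are given without the share of all tested genes.

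By replicate number no paired analysis was possible because numbers follow deposition and no label pairs them. The run of titles was the block instead, with the counts given above, and at 6 h runs 1 and 7 lacked treatments among the libraries used. No run of titles holds both times. The 3 EGF 6 h libraries limit that group. The intervals, not the missed thresholds, say how large a change the data allow.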

Other observations

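The libraries left out give values that belong to no comparison above. The median deviation of the 48 members from the 6 h controls used was -0.31 in control 6 h replicate 1 and -0.25 in control 6 h replicate 2, inside the range of the 24 h libraries (-0.41 to -0.13) and outside that of the 6 h libraries (-0.12 to 0.15). Their near-identical partners, EGF 24 h replicate 2 and AII 24 h replicate 4, had -0.30 and -0.26. The libraries labelled AII 6 h replicate 6 and AII+EGF 6 h replicate 6 both had 0.13, at the level of the 6 h libraries. EGF 6 h replicates 1, 2 and 6 and AII+EGF 6 h replicate 4 had 0.02, 0.09, 0.09 and 0.02.

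Among the 41 members with a listed promoter, 10 of the 14 that fell in untreated cells held CHR letters and 11 held CCAAT, against 12 and 21 of the 27 others. These counts are a description of letters in a window and were not tested.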
